A study of Homo sapiens with 8 samples.

Results

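The genes described are 44 lysosomal genes measured in SW480, a cell line of human colorectal cancer: soluble hydrolases, cathepsins, membrane and cholesterol export proteins, the cystatins CST3 and CST7, which inhibit cathepsins, and TFEB, a transcription factor of lysosomal genes. They were taken by symbol from a list, and all 44 were found among the 18656 gene symbols measured. RNA was sequenced after removal of ribosomal RNA from cells that had taken up small interfering RNA (siRNA) through lipofection. The groups were an siRNA against TCF7L2 at 24, 48 and 72 h and a negative-control siRNA at 0 h, with 2 libraries each and 8 in all. TCF7L2 is a transcription factor at the end of the Wnt pathway, and all groups were of the same line in the same medium. The control was labelled 0 h only, so the TCF7L2 siRNA and the time since transfection cannot be told apart. Nothing in the labels says that libraries of a group are separate cultures, and the p-values therefore measure the spread among these samples alone, which may be technical.

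Lysosomes are acidic compartments in which hydrolases break down proteins, glycans and lipids delivered by endocytosis and autophagy. Most hydrolases reach them on mannose 6-phosphate receptors, cathepsins are their main proteases, and membrane proteins line them and export the products. TFEB binds a motif built on CACGTG in the promoters of many of these genes, and epithelial cells use lysosomes to turn over their own proteins and organelles.

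Levels are given as scaled TPM, the deposited TPM (a length-normalised share of transcripts) divided by a factor for each library. The factors lay between 0.80 and 1.06, with the lowest in replicate 2 at 72 h, whose listed TPM also had the lowest sum, 352456 against 448108 to 485602 in the others. Read depth is unknown, since TPM does not hold it. TCF7L2 itself had 6.51 and 7.03 scaled TPM at 0 h, 5.84 and 5.14 at 24 h, 4.70 and 3.85 at 48 h, then 3.95 and 4.41 at 72 h. It was lower by 0.59 ± 0.11 on the log2 scale (SE) at 72 h (limma adjusted p = 0.00197), and its change of -0.26 at 24 h did not pass the test (limma adjusted p = 0.288). The defining markers of colorectal epithelium were all present, with sums of 3926 to 4096 scaled TPM at 72 h and 3032 to 3080 at 0 h. Of 9 myeloid markers, 8 were under 1 TPM in every library, as were all lymphocyte and endothelial markers. LYZ was the exception, and the myeloid sum was 8.92 to 11.4 scaled TPM at 72 h and 2.85 to 2.91 at 0 h, while the sum of the fibroblast markers was 7.02 to 8.12 at 72 h and 1.76 to 3.25 at 0 h. The part of these sums in the changes below was not tested, and in bulk RNA fewer cells of a type and less RNA per cell cannot be told apart.

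CST7 fell and CD68 and NPC2 rose by more than 2-fold at 72 h, while most other changes of the lysosomal genes were smaller. Of the 44, 41 reached a TPM of 1 in at least 2 libraries and were tested, while SGSH, CTSS and CTSF did not. A gene was called when its Benjamini-Hochberg adjusted p from limma, over all 11894 genes tested, was under 0.05. At 24 h none of the 41 was called, beside 1.08% of all genes tested (0.647% higher and 0.437% lower). An unadjusted limma p under 0.05 was found for 4, 1 higher and 3 lower. It was found for 1961 of all 11894 genes tested, 1073 higher and 888 lower. At 48 h 20 were called, 17 higher and 3 lower, beside 23.5% of all genes (12% higher and 11.5% lower). In TPM as deposited, without the factors, 5 were called at 48 h, 2 higher (CD68 and CTSO) and 3 lower (CST7, IDUA and NPC1). Of all genes, 7.75% were called there (4.61% higher and 3.14% lower). The SEs of the 41 genes lay between 0.16 and 0.18 in that fit, against a median of 0.079 with the factors. A call could therefore be lost there without a smaller change, and p-values of the fits with and without the factors are not on the same footing. CTSO reached a TPM of 1 at 48 and 72 h only, so it was tested through groups in which it was high. At 72 h 26 were called, 21 higher and 5 lower, beside 51.9% of all genes (25.8% higher and 26.2% lower). In TPM as deposited 11 were called at 72 h, 6 higher (CD68, CTSA, CTSO, IDS, NPC2 and SMPD1) and 5 lower (CST7, IDUA, LAMP2, NPC1 and TFEB), beside 41.8% of all genes (10.5% higher and 31.2% lower), where the median of all genes was itself shifted by -0.19 on the log2 scale.

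**Figure D1:**
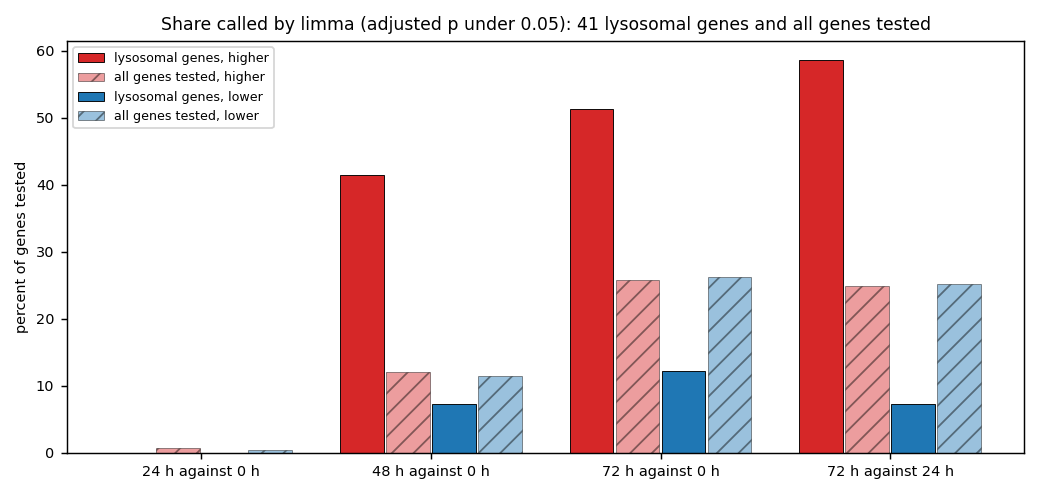
Share of genes called by limma (adjusted p under 0.05), in percent of genes tested, for the 41 lysosomal genes tested and for all 11894 genes, in each comparison. At 72 h 51.2% of the lysosomal genes were higher and 12.2% lower, against 25.8% and 26.2% of all genes.

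The median log2 change of the 41 genes was -0.01 at 24 h, 0.18 at 48 h and 0.25 at 72 h, while that of all genes was 0.00, -0.01 and 0.00. The changes were mostly small: 1 gene at 48 h and 3 genes at 72 h passed a 2-fold limit as well, beside 0.656% and 4.57% of all genes. At 72 h the libraries of 29 genes all lay above those at 0 h, those of 8 lay below and 4 overlapped, beside 37.6% and 37.8% of all genes lying above and below. At 48 h 28 lay above, 5 below and 8 overlapped, beside 31.9% and 34.5% of all genes above and below. The 29 and the 28, and the medians above, include CTSO and CTSK, which were tested through groups in which they were high. At 24 h 12 lay above, 14 below and 15 overlapped, beside 24.9% of all genes in each direction. Against 24 h, the comparison at 72 h called 27 genes, 24 higher and 3 lower, beside 50.1% of all genes (24.9% higher and 25.2% lower). It uses the same 72 h libraries as the comparison with 0 h. The summed scaled TPM of the 44 genes was 1314 and 1299 at 0 h, 1293 and 1306 at 24 h, 1516 and 1507 at 48 h, then 1586 and 1603 at 72 h.

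**Figure D2:**
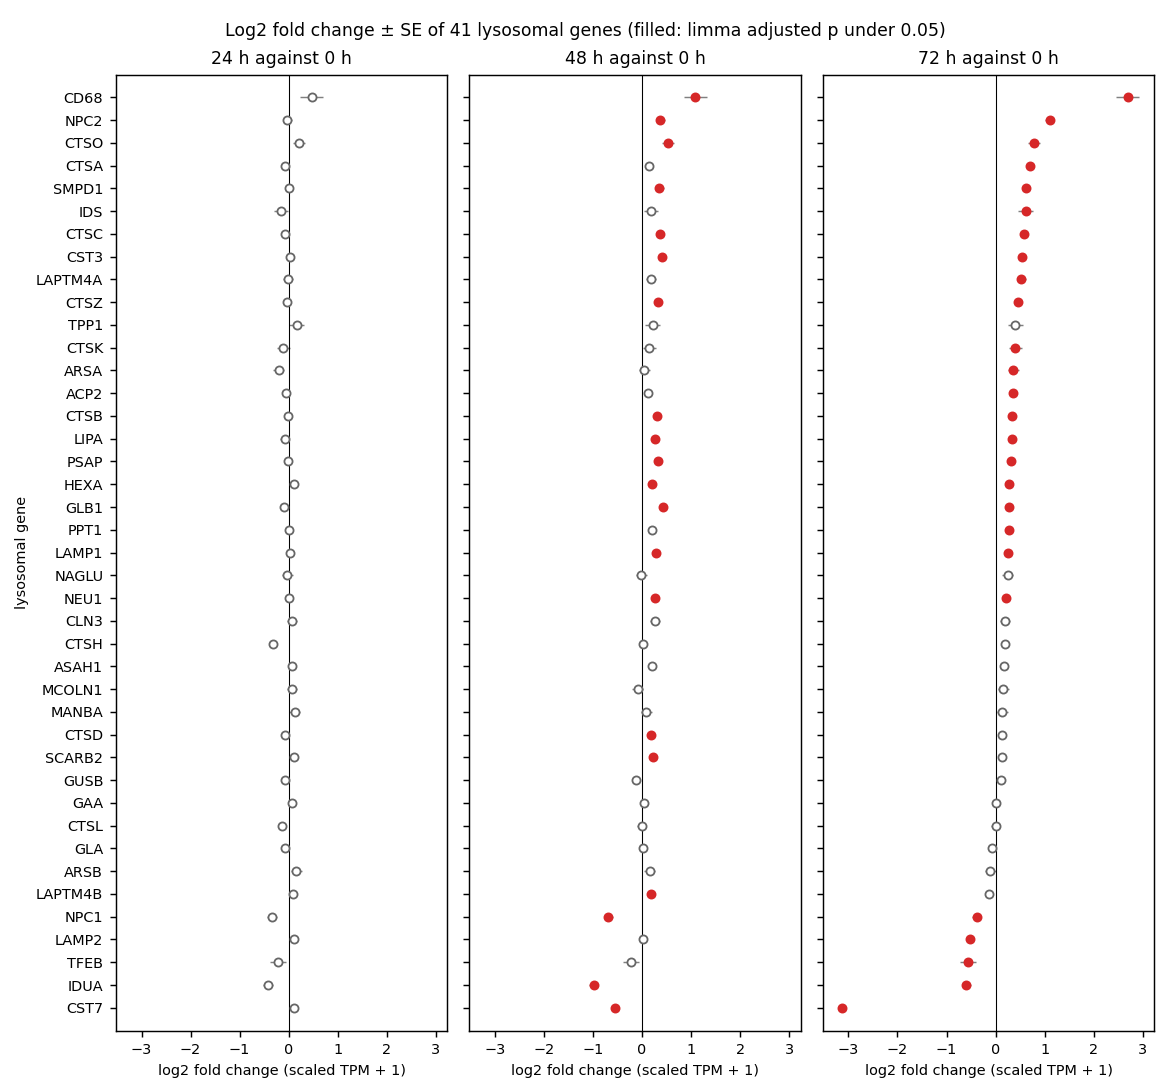
Log2 fold change with SE of each of the 41 lysosomal genes tested, at 24, 48 and 72 h against 0 h, ordered by the change at 72 h. No gene is filled (limma adjusted p under 0.05) at 24 h, and CD68 and CST7 lie farthest out at 72 h, at 2.70 and -3.14.

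The promoters of 4 genes are shown because they hold from 0 to 6 matches to CACGTG. CTSA and LAMP1 were higher at 72 h, GAA was not called, and CD68 had the largest rise. RefSeq (GRCh38.p14) gave a promoter window of 250 bases before to 50 after the start for 30 of the 44 genes. Capitals mark CACGTG, which reads the same on both strands. The windows are CTSA at chr20:45891085-45891384, LAMP1 at chr13:113296989-113297288, GAA at chr17:80101331-80101630 and CD68 at chr17:7579388-7579687, all on the plus strand.
CTSA: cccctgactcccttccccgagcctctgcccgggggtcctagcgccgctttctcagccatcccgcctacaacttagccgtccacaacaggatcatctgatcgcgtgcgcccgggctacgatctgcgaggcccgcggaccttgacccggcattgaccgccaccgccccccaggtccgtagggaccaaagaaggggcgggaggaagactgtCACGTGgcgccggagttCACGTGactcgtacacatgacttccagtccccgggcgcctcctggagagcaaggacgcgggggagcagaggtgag
LAMP1: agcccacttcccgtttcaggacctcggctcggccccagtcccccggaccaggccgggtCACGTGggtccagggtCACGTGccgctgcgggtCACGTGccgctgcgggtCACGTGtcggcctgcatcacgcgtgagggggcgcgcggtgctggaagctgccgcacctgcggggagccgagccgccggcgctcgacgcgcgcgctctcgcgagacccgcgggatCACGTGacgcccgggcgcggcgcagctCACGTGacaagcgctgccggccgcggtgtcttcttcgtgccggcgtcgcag
GAA: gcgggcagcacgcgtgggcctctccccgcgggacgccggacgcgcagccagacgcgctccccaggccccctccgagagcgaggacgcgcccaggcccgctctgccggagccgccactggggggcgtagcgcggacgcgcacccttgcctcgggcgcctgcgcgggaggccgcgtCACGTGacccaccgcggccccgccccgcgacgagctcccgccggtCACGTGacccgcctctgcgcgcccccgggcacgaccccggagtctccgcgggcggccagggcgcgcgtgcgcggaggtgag
CD68: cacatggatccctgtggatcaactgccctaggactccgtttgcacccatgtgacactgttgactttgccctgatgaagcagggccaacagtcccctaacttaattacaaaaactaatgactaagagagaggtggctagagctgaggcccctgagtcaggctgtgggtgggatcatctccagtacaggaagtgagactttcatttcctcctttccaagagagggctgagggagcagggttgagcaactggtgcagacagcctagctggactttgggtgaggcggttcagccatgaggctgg

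CACGTG was in 8 of the 30 windows (26.7%), against 9.4% of the 14159 RefSeq windows of genes tested and 7.26% of all 35116. For each lysosomal gene only the first window was searched, though some, such as TFEB and LIPA, had more. The wider shares count every window of a gene, so here and below the units differ. LAMP1 held 6 matches, CTSA, CTSF, GAA, MCOLN1 and CLN3 held 2 each, and CTSD and NEU1 held 1 each. CTTTGAT, the core motif of the TCF family, searched on both strands, was in 0 windows, against 1.5% of those of genes tested and 2.62% of all. TGATGCAA, a motif of the ATF4 and C/EBP factors, was also in 0, against 0.516% of those of genes tested and 0.866% of all. Of the 7 tested genes with CACGTG, 3 were higher at 72 h and 0 lower, with a median log2 change of 0.19, beside 25.8% of all genes higher and 26.2% lower. Of the 22 without it, 12 were higher and 3 lower, with a median of 0.30. These matches describe the letters of the windows only.

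No cathepsin tested was called lower at 72 h. Of 11, 9 were tested, and at 72 h 6 were higher and 0 lower, with a median log2 change of 0.40, beside 25.8% of all genes higher and 26.2% lower. CTSO and CTSK reached a TPM of 1 at 48 and 72 h only, so they were tested through the groups in which they were high. The median of 0.40 is the value of CTSK itself, so it is not independent of that filter. Without them, a count chosen after seeing the data, 4 of 7 cathepsins were higher and 0 lower, and 24 of 39 lysosomal genes were called, 19 higher and 5 lower. CTSB, a cysteine protease, had 104 and 108 scaled TPM at 0 h, 101 and 111 at 24 h, 129 and 134 at 48 h, then 134 and 135 at 72 h. All libraries at 48 and 72 h lay above those at 0 h, while those at 24 h overlapped them. CTSB was higher by 0.31 ± 0.05 on the log2 scale at 48 h and by 0.34 ± 0.05 at 72 h (limma adjusted p = 0.0039 and 0.000623). In TPM as deposited the calls of CTSB, CTSC and CTSZ at 48 h were lost (limma adjusted p = 0.303, 0.181 and 0.27). Their changes at 48 h were 0.30, 0.36 and 0.31 there, each with an SE of 0.16, against 0.31, 0.37 and 0.32 with the factors. Their calls at 72 h were lost there as well (limma adjusted p = 0.569, 0.0674 and 0.232), with changes of 0.12, 0.35 and 0.24. CTSC, which trims dipeptides from protein ends and activates serine proteases of immune cells, had 103 and 93.7 scaled TPM at 0 h, 93.5 and 92.9 at 24 h, 123 and 132 at 48 h, then 150 and 143 at 72 h. It was higher by 0.57 ± 0.06 at 72 h (limma adjusted p = 4.6e-05). CTSZ, a carboxypeptidase, had 101 and 100 scaled TPM at 0 h, 100 and 97.5 at 24 h, 130 and 122 at 48 h, then 137 and 140 at 72 h. Its rise of 0.46 ± 0.05 at 72 h passed the test (limma adjusted p = 4.65e-05), and the groups at 72 and 0 h did not overlap for CTSC or CTSZ.

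CTSA, a carboxypeptidase that also protects GLB1 and NEU1 in a complex, had 40.9 and 40.0 scaled TPM at 0 h, 38.1 and 38.6 at 24 h, 44.5 and 44.7 at 48 h, then 65.3 and 67.4 at 72 h. The rise came at 72 h, where CTSA was higher by 0.70 ± 0.05 (limma adjusted p = 4.68e-06), against 0.14 at 48 h (limma adjusted p = 0.0729). Its partners GLB1, a beta-galactosidase, and NEU1, a sialidase, were already called at 48 h, where CTSA was not. They were higher by 0.43 and 0.26 then (limma adjusted p = 0.00138 and 0.0219). In TPM as deposited these 48 h calls were lost (limma adjusted p = 0.0872 and 0.401). The 48 h call of NEU1 was also lost when any library at 0 or 48 h was left out. At 72 h GLB1 and NEU1 were higher by 0.28 and 0.21 (limma adjusted p = 0.0035 and 0.029). Both calls at 72 h were lost in TPM as deposited (limma adjusted p = 0.766 and 0.992). The NEU1 call was lost without replicate 2 at 0 h (limma adjusted p = 0.169) or replicate 2 at 72 h (limma adjusted p = 0.11). In the annotation (GENCODE v29, GRCh38) exons of CTSA overlap those of PLTP and NEURL2 on the other strand. PLTP fell by 0.37 and NEURL2 by 0.47 on the log2 scale at 72 h. Reads of overlapping genes may be split uncertainly. CTSA lies at chr20:45890144-45898820 in that build.

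CTSO, a cysteine protease of low level here, had 0.494 and 0.414 scaled TPM at 0 h, 0.582 and 0.794 at 24 h, 1.10 and 1.10 at 48 h, then 1.59 and 1.39 at 72 h. The libraries at each time lay above those at 0 h, and CTSO was higher by 0.78 ± 0.12 at 72 h (limma adjusted p = 0.000619). CTSO and CTSK passed the filter only through 48 and 72 h, where they were high. Their p-values and lack of overlap are therefore not independent support for a rise. CTSK, a collagen-degrading protease, was higher by 0.40 at 72 h (limma adjusted p = 0.0299), a call lost without replicate 1 at 0 h (0.115), replicate 2 at 0 h (0.0887) or replicate 2 at 72 h (0.163). CTSD, the main aspartic protease, changed by 0.14 (limma adjusted p = 0.0547), CTSH by 0.18 (limma adjusted p = 0.0797) and CTSL by 0.00 (limma adjusted p = 0.975) at 72 h. At 48 h CTSD was called higher, by 0.17 (limma adjusted p = 0.0412), a call lost in TPM as deposited (limma adjusted p = 0.654). CTSS, a protease of antigen-presenting cells, lay at or under 0.311 scaled TPM, and CTSF at or under 0.0287.

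The cystatins moved in opposite directions. CST3, a secreted inhibitor of cysteine cathepsins, had 105 and 102 scaled TPM at 0 h, 108 and 104 at 24 h, 134 and 140 at 48 h, then 147 and 157 at 72 h. It was higher by 0.40 ± 0.05 at 48 h and by 0.55 ± 0.05 at 72 h (limma adjusted p = 0.00091 and 2.29e-05). Both calls were lost in TPM as deposited (limma adjusted p = 0.137 and 0.0931). CST7, an inhibitor that reaches the lysosome and restrains the activator CTSC, had 43.7 and 44.1 scaled TPM at 0 h, 48.8 and 46.4 at 24 h, 31.4 and 28.3 at 48 h, then 4.40 and 3.82 at 72 h. At 72 h both libraries lay far below those at every other time. CST7 was lower by 0.54 ± 0.08 at 48 h and by 3.14 ± 0.08 at 72 h (limma adjusted p = 0.00146 and 1.1e-08). Among the 44 genes it ranked 9 by level at 0 h and 37 at 72 h. CST7 lies at chr20:24949230-24959928 (GRCh38).

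**Figure D3:**
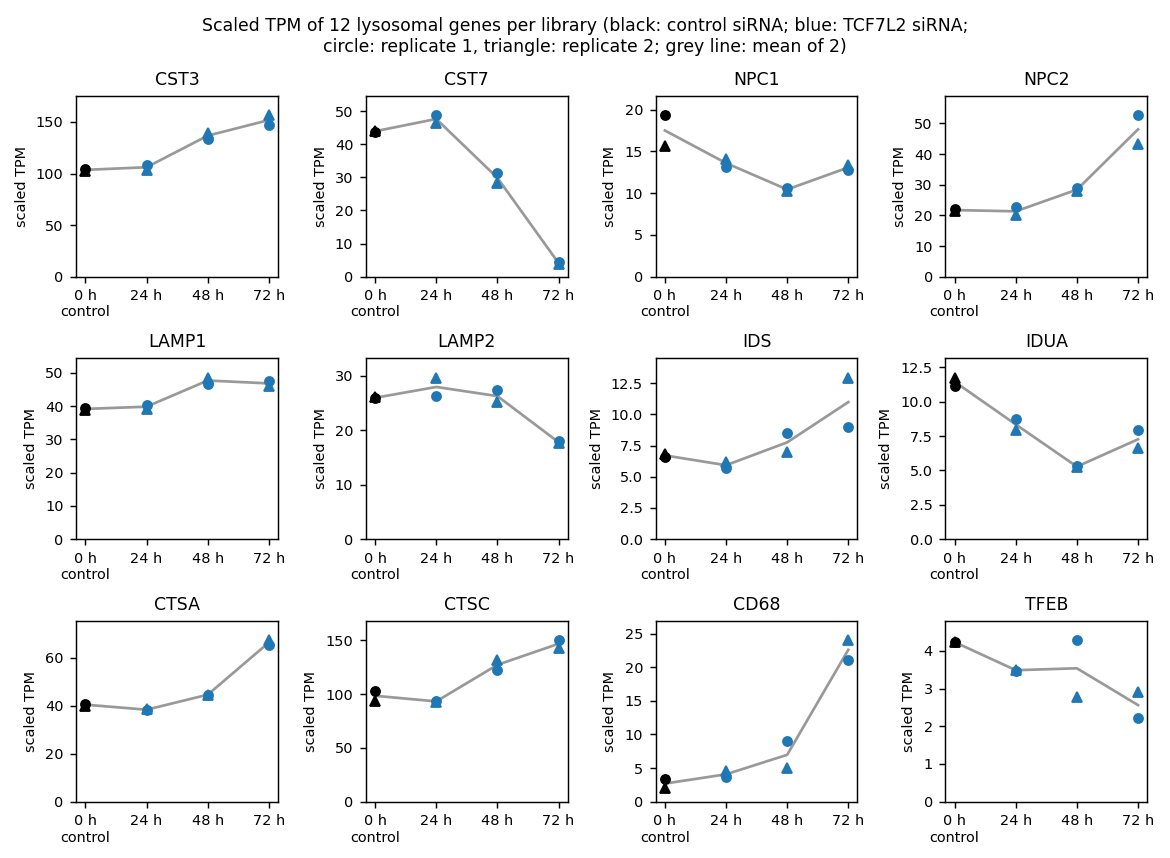
Scaled TPM of 12 lysosomal genes in each library against time, with a grey line through the mean of 2 libraries at each time. CST7 falls to 4.40 and 3.82 at 72 h, against 43.7 and 44.1 at 0 h, while CST3, NPC2, CTSA and CD68 are highest at 72 h.

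Of the 10 membrane and cholesterol export proteins, 4 were higher and 2 lower at 72 h, with a median log2 change of 0.17, beside 25.8% of all genes higher and 26.2% lower. These shares are near those of all genes. CD68, a heavily glycosylated protein of late endosomes best known in macrophages, had 3.37 and 2.02 scaled TPM at 0 h, 3.62 and 4.52 at 24 h, 8.97 and 4.98 at 48 h, then 21.1 and 24.1 at 72 h. All libraries after 0 h lay above both controls. CD68 was higher by 1.09 ± 0.24 at 48 h and by 2.70 ± 0.24 at 72 h (limma adjusted p = 0.0103 and 1.63e-05). The call at 48 h was lost without replicate 2 at 0 h (0.0732) or replicate 1 at 48 h (0.0602, with a change of 0.72). The myeloid markers PTPRC, CD14, CSF1R and 5 others were under 1 TPM in every library, while LYZ averaged 8.36 scaled TPM at 72 h and 1.96 at 0 h. CD68 lies at chr17:7579467-7582113 (GRCh38) and overlaps noncoding transcripts there.

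The paired cholesterol exporters moved apart. NPC2, which binds cholesterol in the lumen and hands it to NPC1, had 22.2 and 21.3 scaled TPM at 0 h, 22.7 and 20.0 at 24 h, 28.8 and 28.0 at 48 h, then 52.8 and 43.4 at 72 h. It was higher by 1.10 ± 0.09 at 72 h (limma adjusted p = 1.35e-05), with no overlap with 0 h. NPC1, which moves that cholesterol across the membrane, had 19.4 and 15.7 scaled TPM at 0 h, 13.1 and 14.1 at 24 h, 10.7 and 10.2 at 48 h, then 12.8 and 13.4 at 72 h. NPC1 was lower by 0.69 ± 0.10 at 48 h and by 0.39 ± 0.10 at 72 h (limma adjusted p = 0.00153 and 0.00835). Without replicate 1 at 0 h its change at 72 h was -0.24 (limma adjusted p = 0.0701). Exons of NPC2 overlap those of ISCA2 on the other strand, which changed by -0.14 at 72 h and was not called (limma adjusted p = 0.301).

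The abundant membrane glycoproteins LAMP1 and LAMP2 also differed. LAMP1 was higher by 0.25 ± 0.05 at 72 h, with 47.4 and 46.1 scaled TPM at 72 h, against 39.4 and 38.9 at 0 h (limma adjusted p = 0.0028). LAMP2, needed for fusion with autophagosomes, was lower by 0.52 ± 0.07, with 18.0 and 17.6 scaled TPM at 72 h, against 25.9 and 26.1 at 0 h (limma adjusted p = 0.000338). The groups overlapped for neither gene. The LAMP1 call was lost in TPM as deposited (limma adjusted p = 0.873), while that of LAMP2 was kept (4.45e-05). LAPTM4A, a small membrane protein, was higher by 0.53 (limma adjusted p = 0.00133), a call lost in TPM as deposited (limma adjusted p = 0.101). Its relative LAPTM4B changed by -0.13 (limma adjusted p = 0.0507), the glucocerebrosidase receptor SCARB2 by 0.13 (0.122), the calcium channel MCOLN1 by 0.16 (0.247) and the membrane protein CLN3 by 0.19 (0.15). At 48 h LAPTM4B and SCARB2 were called higher, by 0.18 and 0.22 (limma adjusted p = 0.0249 and 0.0378). These 48 h calls were lost in TPM as deposited (limma adjusted p = 0.622 and 0.519).

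Glycosidases cut sugars from glycans and glycolipids. Of 9, 3 were higher and 1 lower at 72 h, with a median log2 change of 0.14, and this is near the 51.9% of all genes called. IDUA, which starts the breakdown of dermatan and heparan sulphate, had 11.1 and 11.8 scaled TPM at 0 h, 8.73 and 7.96 at 24 h, 5.34 and 5.22 at 48 h, then 7.91 and 6.62 at 72 h. Libraries at every later time lay below both controls, with the lowest at 48 h. IDUA was lower by 0.99 ± 0.10 at 48 h and by 0.60 ± 0.10 at 72 h (limma adjusted p = 0.000226 and 0.00078), and its change of -0.41 at 24 h was not called (limma adjusted p = 0.0803). IDUA shares exons with SLC26A1 on the other strand, whose change of -0.49 at 72 h was not called (limma adjusted p = 0.152). It lies at chr4:986997-1004506 (GRCh38).

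HEXA, which removes a terminal sugar from gangliosides, was higher by 0.28 at 72 h (limma adjusted p = 0.000809). The HEXA call was lost in TPM as deposited (limma adjusted p = 0.768). GUSB, a beta-glucuronidase, changed by 0.12 (0.101), GAA, which breaks down glycogen, by 0.01 (0.953), the alpha-galactosidase GLA by -0.08 (0.322), the beta-mannosidase MANBA by 0.14 (0.331) and the heparan sulphate enzyme NAGLU by 0.25 (0.101), all as log2 changes with limma adjusted p. Of the sulfatases, IDS, which acts on the same glycosaminoglycans as IDUA, had 6.61 and 6.81 scaled TPM at 0 h, 5.67 and 6.17 at 24 h, 8.51 and 6.99 at 48 h, then 9.01 and 12.9 at 72 h. It was higher by 0.62 ± 0.15 at 72 h (limma adjusted p = 0.00663), and by 0.38 without replicate 2 at 72 h. ARSA, which removes sulphate from sulphatides, was higher by 0.36 (limma adjusted p = 0.0195), a call lost without replicate 2 at 0 h (0.139), replicate 1 at 72 h (0.0573) or replicate 2 at 72 h (0.0575). ARSB, which acts on dermatan sulphate, changed by -0.11 (limma adjusted p = 0.441), and SGSH, which acts on heparan sulphate, lay at or under 0.525 scaled TPM.

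Among 7 enzymes of lipids, phosphates and peptides with the activator PSAP, 5 were higher and 0 lower at 72 h, beside 25.8% of all genes higher and 26.2% lower. PSAP, the precursor of the saposins that present sphingolipids to hydrolases, had 117 and 115 scaled TPM at 72 h, against 93.4 and 93.2 at 0 h, and was higher by 0.31 ± 0.04 (limma adjusted p = 0.00028). SMPD1, acid sphingomyelinase, was higher by 0.62 (limma adjusted p = 0.000244), with 10.4 and 9.72 scaled TPM at 72 h, against 6.04 and 6.33 at 0 h. ACP2, an acid phosphatase, was higher by 0.35 (0.00288), LIPA, the cholesteryl ester hydrolase, by 0.33 (0.00866) and PPT1, a depalmitoylating enzyme, by 0.27 (0.0168). In TPM as deposited the calls of PSAP, ACP2, LIPA and PPT1 were lost (limma adjusted p = 0.69, 0.481, 0.564 and 0.814). The LIPA call was lost without replicate 1 at 0 h (0.0758). The PPT1 call was lost without replicate 1 at 0 h (0.055), replicate 2 at 0 h (0.0806) or replicate 2 at 72 h (0.0939, with a change of 0.14). The ceramidase ASAH1 changed by 0.18 (0.0625) and the peptidase TPP1 by 0.41 (0.0548).

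TFEB, which drives transcription of many of these genes when it enters the nucleus, was lower. It had 4.24 and 4.23 scaled TPM at 0 h, 3.47 and 3.50 at 24 h, 4.29 and 2.79 at 48 h, then 2.21 and 2.91 at 72 h. The libraries at 48 h lay apart, and those at 72 h lay below both controls. TFEB was lower by 0.56 ± 0.16 at 72 h (limma adjusted p = 0.0142), a call lost without replicate 1 at 0 h (0.0563), replicate 2 at 0 h (0.0562) or replicate 1 at 72 h (0.0895).

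The lysosomal genes spanned a wide range of levels. Averaged over all 8 libraries, 5 lay at 100 scaled TPM or more, 21 between 10 and 100, 13 between 1 and 10 and 5 under 1. The 6 highest, CST3, CTSB, CTSC, CTSZ, PSAP and CTSD, made up 49.2% and 48.9% of the summed level at 72 h, against 45.3% and 44.7% at 0 h. Of the 44 genes, 19 had exons overlapping another gene in the annotation and 14 a protein-coding one, among them IDS, NPC1, MCOLN1, CLN3 and PPT1. Pseudogenes named after GUSB, CTSL, LAPTM4B and IDS also exist, so these levels are uncertain to that extent. The strand setting of the counting was not stated in what was used here.

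Counts in other gene lists of the lysosome at 72 h are read beside 25.8% of all genes higher and 26.2% lower, and those of the V-ATPase, nutrient-sensing and autophagy lists were near these shares. Of 31 other hydrolases and membrane proteins tested, 15 were higher and 3 lower (median 0.33), among them CD63, an endosomal tetraspanin, at 0.71, GLMP at 0.95 and the nuclease DNASE2 at -0.87. Of 16 subunits of the V-ATPase, the proton pump that acidifies the lysosome, 5 were higher and 4 lower (median 0.17), with ATP6V0B at -1.43, ATP6V1G1 at -0.73 and ATP6V1A at 0.50. Of 14 sorting genes, 5 were higher and 3 lower (median -0.04), with the mannose 6-phosphate receptors M6PR at 0.86 and IGF2R at 0.46 and SORT1 at -0.60. Of 16 genes of the MiT/TFE factors and nutrient sensing, 4 were higher and 4 lower, with RPTOR at -0.38, LAMTOR1 at 0.33 and MTOR at -0.21. Of 18 autophagy genes, 5 were higher and 5 lower, with MAP1LC3A at 1.44, WIPI1 at -1.13 and MAP1LC3B at -0.61. Of 4 other cystatins and stefins, 2 were higher and 1 lower, with CST1 at 2.46, CST5 at 1.39 and CSTA at -0.78. Of 17 tethering and transport genes, 5 were higher and 2 lower, with VPS41 at 0.40 and HPS6 at -0.35. All values are log2 changes that passed limma's test at 72 h against 0 h. In TPM as deposited, where 10.5% of all genes were higher and 31.2% lower, the V-ATPase list had 0 higher and 4 lower, the other hydrolases 8 higher and 5 lower, the sorting list 1 higher and 4 lower, the nutrient-sensing list 0 higher and 5 lower, the autophagy list 1 higher and 7 lower, and the tethering list 0 higher and 3 lower. ATP6V1A, IGF2R, LAMTOR1 and VPS41 were no longer called there.

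**Figure D4:**
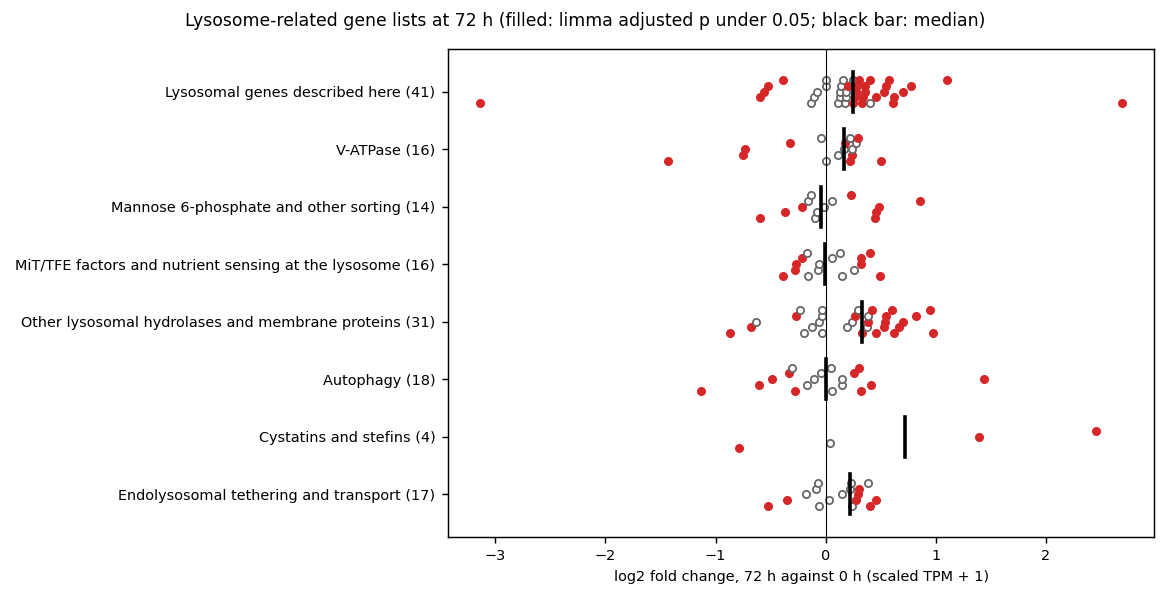
Log2 fold change at 72 h against 0 h of each tested gene in 8 lysosome-related lists, filled where limma's adjusted p was under 0.05, with the list median as a black bar. The lysosomal genes described here have a median of 0.25, against 0.17 for the V-ATPase and 0.33 for the other hydrolases and membrane proteins.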

How the data were processed

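RNA of SW480 cells was sequenced in 8 libraries. The authors deposited TPM per gene symbol. The submitters' processing notes name RSEM, STAR, Trimmomatic, FastQC, SAMtools and Picard and the build hg19, while versions, annotation and strandedness were not stated in what was used here. Each library was scaled by the median, over genes, of its ratio to the mean log profile. Genes that reached a deposited TPM of 1 in 2 or more libraries (11894 of 18656) were fitted as log2(scaled TPM + 1) with limma 3.58.1 in R 4.3.3, with moderation and a mean-variance trend, over all 4 groups. Folds are on that scale, which understates changes of low genes. Tests were two-sided with Benjamini-Hochberg adjustment and a threshold of 0.05. The fit was tested on simulated data. Genes given in full were those called with a log2 change of 0.7 or more against 0 h in either direction and the 4 of highest mean level; NPC1, IDS and TFEB were added after their values were seen. The genes and lists were chosen with earlier results of these data known. Alternatives covered scaling, pseudocount, filter, moderation, replicate block and each library left out. Coordinates are from GENCODE v29 (GRCh38) and promoters from RefSeq (GRCh38.p14), not the authors' build.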

Additional observations from a re-analysis of the deposited data

How the results depend on the processing

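In TPM as deposited, without scaling, 5 of the 41 lysosomal genes were called at 48 h (2 higher, 3 lower), beside 7.75% of all genes. At 72 h 11 were called (6 higher, 5 lower), beside 41.8%. At 72 h against 24 h 13 were called (10 higher, 3 lower), beside 33.4%. The median log2 changes were -0.10 (24 h), 0.18 (48 h), 0.053 (72 h) and 0.13 (72 h against 24 h). Those of all genes were -0.089, -0.015, -0.19 and -0.11. Calls lost there at 72 h were CST3, CTSB, CTSC, CTSZ, PSAP, HEXA, GLB1, LAMP1, LAPTM4A, ACP2, LIPA, PPT1, CTSK and ARSA. The NEU1 call at 72 h was lost there too and reversed, to -0.00222 (limma adjusted p = 0.992). The SEs of the 41 genes lay between 0.16 and 0.18 in that fit, against a median of 0.079 with scaling. How far each loss came from the larger SE or from a smaller change was not tested. With libraries rescaled to the same listed sum the medians were -0.054 at 24 h and 0.12 at 48 h. Those of all genes were then -0.046 and -0.067. A pseudocount of 0.1 gave a median of 0.20 at 48 h, a pseudocount of 5 gave 0.16 (48 h), 0.17 (72 h) and 0.18 (72 h against 24 h), and no filter gave 0.18 at 48 h. An adjusted p of 0.01 left 10 calls at 48 h, beside 10.6% of all genes. A 2-fold limit left 1 (48 h), 3 (72 h) and 3 (72 h against 24 h), beside 0.656%, 4.57% and 4%. With each library left out in turn, calls numbered 0 to 1 (24 h), 11 to 21 (48 h), 21 to 27 (72 h) and 21 to 29 (72 h against 24 h), and the medians ran from -0.00761 to 0.00521, 0.17 to 0.19, 0.23 to 0.30 and 0.21 to 0.30. The lone sample of a group was then assumed to vary like the others. IDUA was then also called at 24 h, without replicate 1 or replicate 2 at 72 h. At 48 h fewer lysosomal genes, and a smaller share of all genes, were called when any library at 0 or 48 h was left out. Deviations of same-numbered libraries were weakly correlated at most (-0.085 to 0.106). Whether these libraries share a culture or batch was not tested. With the replicate block 0, 19, 27 and 27 genes were called in the 4 comparisons, beside 0.765%, 22.8%, 51.6% and 49.4% of all genes. SCARB2 at 48 h was lost (0.0516) and CTSD at 72 h gained (0.0376). No other called lysosomal gene changed direction in the alternatives run. Having 2 libraries a group and an unknown read depth limit the precision.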
